A study of Mus musculus with 2 samples.

Results

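GABAergic amacrine cells are inhibitory interneurons of the inner retina. They were picked from single-cell RNA libraries of mouse retinas that had received lipopolysaccharide (LPS), the endotoxin of Gram-negative bacteria, in the vitreous. The 2 libraries held 13919 cell barcodes. Of these, 12936 had at least 500 detected genes with under 25% mitochondrial counts, and 732 of those cells were taken as GABAergic amacrine cells: 443 in the knockout library and 289 in the control library. A member needed at least 2000 unique molecular identifiers (UMIs, each standing for 1 captured RNA molecule), with 3 or more from Gad1 plus Gad2, the enzymes that make GABA. That sum had to exceed 3 times the cell's Slc6a9, the glycine transporter of glycinergic amacrine cells. A member also needed a UMI of the amacrine genes Pax6, Tfap2a or Tfap2b or of the vesicular inhibitory transporter Slc32a1. Cells with more than 1 UMI of the horizontal cell gene Lhx1, more than 1 of the glutamate transporter Slc17a6 or more than 2 of the ON bipolar gene Trpm1 were left out. These genes chose the cells, so their levels are a description only.

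Amacrine cells sit between bipolar cells, which carry light signals inward, and ganglion cells, which send them to the brain. The GABAergic kinds act on bipolar terminals, ganglion cells and one another, often over wide distances. They shape contrast, timing and the response to moving edges. They comprise many subtypes, among them starburst cells, which also release acetylcholine, dopaminergic cells, and cells that make neuropeptides. Type I interferons act on most cell types through transcription factors such as Stat2 and Irf9, which switch on antiviral genes, and interferon gamma acts on genes of antigen presentation.

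The study deleted Atg5, a gene needed to form autophagosomes, and asked how retinal cells then looked during LPS inflammation. The knockout library came from GLAST-CreER; Atg5fl/fl retinas given 4-hydroxy-tamoxifen, and the control library from Atg5fl/fl retinas, which carry the floxed allele without Cre. Both groups had LPS at 0.5 µg per eye, and each library was made from 6 pooled retinas. The GLAST promoter drives the tamoxifen-dependent Cre in Müller glia, so amacrine cells were not its target. Only the knockout pool had Cre and the drug, so genotype, Cre and drug cannot be told apart. Sexes, ages, the number of animals and the time between injection and harvest are not stated in the labels. With 1 library per group no difference has a replicate check, there was no test between groups, and all 95% intervals cover counting error only.

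The knockout library held 50676223 UMIs and the control library 43669961, with medians of 6808 and 1396 UMIs per kept cell. Depth among the members was closer, with medians of 14651 UMIs (2056 to 90627) in the knockout library and 15221 (2321 to 93514) in the control library. The 2 libraries shared 15 barcode sequences, of which 0 belonged to knockout members and 2 to control members. Values below are UMIs summed over the members of a library and divided by their total, per 1000000 UMIs (CPM). These totals were 7088495 UMIs in knockout and 4631950 in control members. Atg5 itself (mm10 chr10:44268358-44364291, plus strand) had 32.4 CPM in knockout and 34.8 CPM in control members, a ratio of 0.93 (0.76 to 1.15), with a UMI in 35.2% and 37.0% of cells. These 3' reads need not fall in the deleted part of the gene, so this checks no deletion.

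Most of the marker values describe the selection and are no check of the label. The 6 GABAergic markers (Gad1, Gad2, Slc32a1, Tfap2b, Pax6 and the peptide gene Cartpt) all had UMIs and summed to 5664 CPM in knockout members and 5417 CPM in control members, against 487 and 414 CPM in the remaining cells of each library. All but Cartpt also served in the rule. Of genes the rule did not use, Cartpt had 2798 CPM in knockout and 2475 CPM in control members, and Meis2, a factor of GABAergic amacrine cells, had 1053 CPM in knockout and 1112 CPM in control members, against 142 and 266 CPM in the remaining cells. The glycinergic list summed to 628 CPM in knockout and 689 CPM in control members, against 5653 and 5377 CPM in glycinergic amacrine cells picked by the mirrored rule (265 in the knockout and 252 in the control library). Gad1 had 718 CPM in knockout and 753 CPM in control members, Gad2 had 281 and 299, and Slc32a1 had 313 and 318. The median member held 14 Gad UMIs in each library. At the threshold, 35 knockout and 28 control members had exactly 3, while 73 knockout and 34 control cells missed membership with 2. At this edge Meis2 had 823 CPM in knockout and 821 CPM in control members with 3 Gad UMIs, and 423 and 1074 CPM in the cells that missed with 2.

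Markers of other cells were present at low level and differed between the libraries. The 13 rod markers, all detected, summed to 266 CPM in knockout and 924 CPM in control members, a ratio of 0.29, in the same order as in the remaining cells of the libraries (2273 and 7230 CPM). The 9 Müller glia markers summed to 999 CPM in knockout and 1608 CPM in control members, with 25.4% and 57.3% of these UMIs in 5 cells. The 8 neutrophil markers summed to 1157 CPM in knockout and 106 CPM in control members, and 5 knockout cells held 91.1% of them. The 5 erythroid markers summed to 439 and 177 CPM, and 7 cone markers to 108 and 174 CPM. Pou4f2, a defining ganglion cell gene, was at 0 in both libraries, as were the microglial genes C1qa, C1qb and C1qc. Other markers of these cells did have UMIs. The 8 ganglion cell markers, 7 of them detected in each library, summed to 142 CPM in knockout and 129 CPM in control members. The 8 microglia markers summed to 35.0 and 35.6 CPM. In 12 knockout and 5 control members, markers of rods, cones, Müller glia, neutrophils or erythroid cells took more than 1% of UMIs. These are called doublet-like here, and some values below are also given without them. The part of other cells' RNA in the differences below was otherwise not tested.

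GABAergic amacrine cells made up 9.50% (8.68 to 10.4) of kept cells in the knockout library and 3.49% (3.11 to 3.91) in the control library. Over cells with at least 2000 UMIs, the population the rule could reach, the shares were 12.6% (11.5 to 13.7) of 3518 knockout cells and 9.74% (8.70 to 10.9) of 2967 control cells. Against other inner neurons picked at the same depth, there were 43.5 GABAergic amacrine cells per 100 bipolar cells in the knockout library and 45.9 in the control library. There were 167 per 100 glycinergic amacrine cells in the knockout library and 115 in the control library. The control library thus held more kept cells below the depth at which a cell could be a member, 2967 of 8274 reaching it, against 3518 of 4662 in the knockout library.

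Peptide genes, a GABA transporter and a set of transcription factors set these cells apart from glycinergic amacrine cells in both libraries. The contrast is a description, since Gad and Slc6a9 counts chose both classes. Among 10247 genes measured in the knockout library (at least 100 UMIs over both classes), 13.5% were at least 1.5-fold higher and 11% at least 1.5-fold lower in GABAergic cells. In the control library it was 14.4% and 13.3% of 9678 genes, and over both libraries 9.48% and 7.45% of 9467 genes lay past 1.5-fold the same way. The genes named as highest and lowest are those with the most extreme ratio in the library where it was weaker. C1ql2, a secreted C1q-like protein of synapses, had 296 CPM in GABAergic and 1.52 CPM in glycinergic cells of the knockout library, and 260 and 0.568 CPM in the control library. Cbln2, a synaptic organiser, had 171 and 0.608 CPM in the knockout library and 201 and 1.14 CPM in the control library. Cartpt, which encodes the peptide CART, was 69.8-fold higher in the knockout library (2798 against 40.1 CPM) and 63.1-fold in the control library (2475 against 39.2 CPM). The neuropeptide gene Npy had 133 and 2.13 CPM in the knockout library and 95.2 and 0.852 CPM in the control library. Vip had 172 CPM in GABAergic and 2.73 CPM in glycinergic cells of the knockout library, and 135 CPM against no UMI in the control library. The neurokinin B gene Tac2, the prohormone convertase Pcsk1, which cuts peptide precursors, the noncoding gene Pantr1, Mn1 and the copine Cpne4 completed the 10 highest. Of 13 measured neuropeptide genes, 10 were past 1.5-fold higher in both libraries and 0 lower, with median log2 ratios of 1.71 in the knockout and 2.61 in the control library.

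Transmitter handling and reception differed as well. Slc6a11, a GABA transporter, chosen after its values were seen, had 218 and 5.77 CPM in the knockout library and 256 and 4.26 CPM in the control library. Of 21 measured glutamate receptor genes, 10 were higher in both libraries and 1 lower. Grm7, a presynaptic metabotropic receptor, was 4.26-fold and 5.54-fold higher in the knockout and control libraries. The AMPA receptor gene Gria4 lay at 0.83 and 0.91. Of 18 genes for GABA and glycine receptors and their scaffold, 7 were higher and 1 lower in both libraries, with Gabra2 at 2.92-fold and 7.78-fold. Of 28 voltage-gated channel genes, 13 were higher, among them the fast potassium channel Kcnc2 (6.55-fold and 10.6-fold), and 5 were lower in both libraries.

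Transcription factors split in both directions, with 12 of 23 measured higher and 6 lower in both libraries. Meis2 (mm10 chr2:115863064-116065839, minus strand) had 1053 CPM in GABAergic and 26.4 CPM in glycinergic cells of the knockout library, and 1112 and 65.3 CPM in the control library. Ebf3 had 4.66 and 129 CPM in the knockout library and 3.24 and 201 CPM in the control library, and Neurod2 had 7.34 and 189 CPM in the knockout library. Other genes low in GABAergic cells were the dopamine receptor gene Drd2, at 2.54 and 105 CPM in the knockout library and 2.16 and 80.9 CPM in the control library, and Lamp5, at 34.1 and 870 CPM and at 18.1 and 607 CPM. Orm1, an acute-phase protein gene, was the lowest by this rule, with 1.98 and 321 CPM in the knockout library and 0.864 and 262 CPM in the control library. The interferon lists lay lower in GABAergic than in glycinergic cells: 13 of 22 type I interferon genes and 19 of 25 interferon gamma genes were past 1.5-fold lower in both libraries, and 0 of either list were higher. Müller glia markers were lower too, at 999 against 1293 CPM in the knockout and 1608 against 3306 CPM in the control library. Neutrophil markers were at 1157 against 149 CPM and 106 against 613 CPM. Doublet-like cells were kept, and the part of other cells' RNA in this contrast was not tested. For autophagy machinery 1 of 35 genes was higher and 0 lower, and for oxidative phosphorylation 0 of 38 were past 1.5-fold in either direction.

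**Figure D1:**
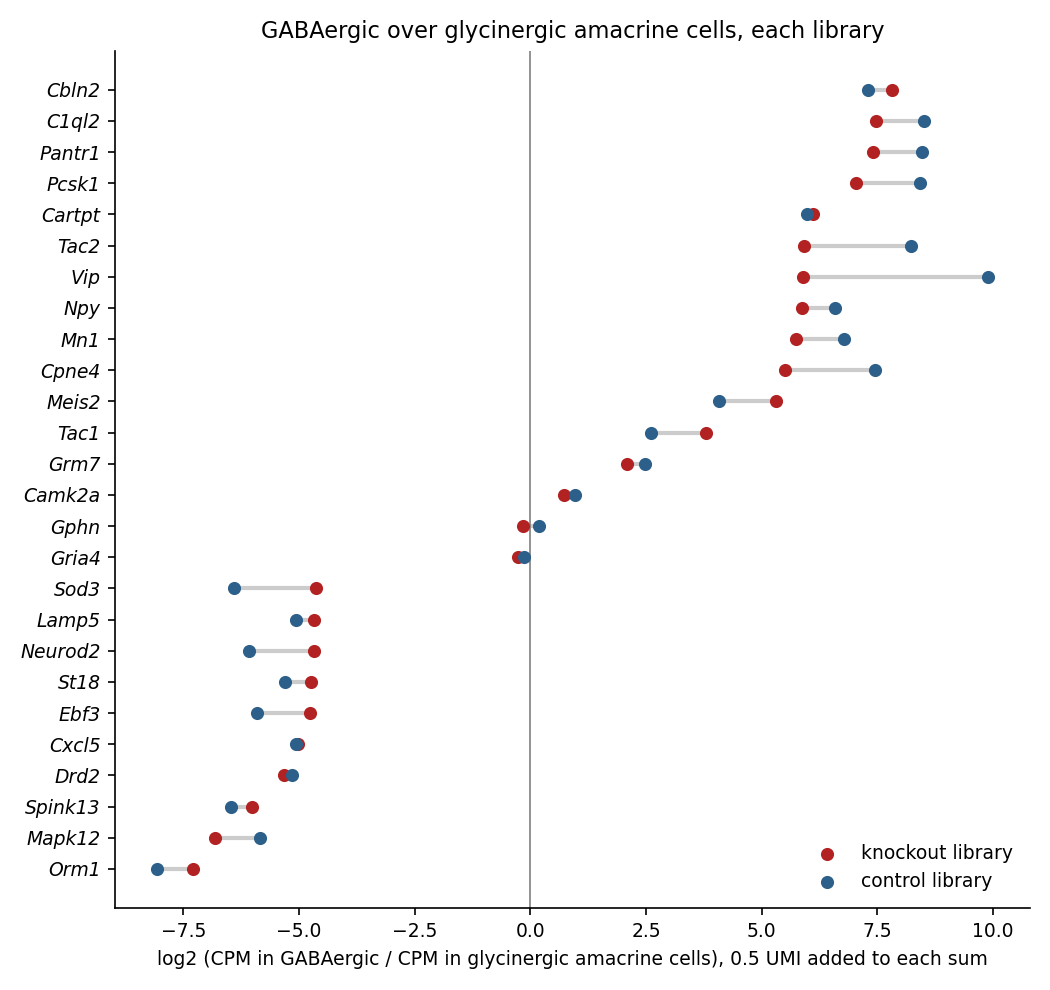
Log2 ratio of CPM in GABAergic over glycinergic amacrine cells (x axis, 0.5 UMI added to each sum) for the 10 highest and 10 lowest genes and 6 other genes named in the text (y axis), in the knockout library (red) and the control library (blue). The 10 highest and 10 lowest genes lie on the same side of 0 in both libraries, while Gria4 and the receptor scaffold gene Gphn lie nearer to 0. Genes with no UMI in glycinergic cells, such as Vip in the control library, have ratios set by the 0.5 added.

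The members were not uniform, and genes of known subtypes marked small sets of them. To compare shares, each cell was thinned to 2000 UMIs, and bipolar cells thinned alike gave a background share. Cartpt had a UMI in 20.3% (16.7 to 24.4) of knockout and 15.9% (11.9 to 20.7) of control members, against 3.04% and 1.59% of bipolar cells and 9.43% and 8.73% of glycinergic cells. Before thinning, it had a UMI in 36.8% of knockout and 27.3% of control members. Tac1, which encodes substance P, had 10.2% and 10.4%, and Npy 7.0% and 7.27%. Vip had 5.64% (3.69 to 8.22) and 3.11% (1.43 to 5.83). The starburst genes Chat, which makes acetylcholine, and Slc18a3, which loads it into vesicles, had 2.93% and 1.73% and 3.84% and 3.11% in knockout and control members, against at most 0.0981% of bipolar cells. For all of these genes the intervals of the 2 libraries overlapped. Th, the dopamine enzyme, had a UMI in 14 knockout (3.16%) and 3 control members (1.04%) before thinning, with as many as 24 UMIs in 1 knockout and 36 in 1 control cell, and in 0.451% and 0 of 289 after it. Cck, the cholecystokinin gene, had 2.93% and 2.77%. Bipolar cells carry Cck themselves (131 and 101 CPM) and are no background for it. Before thinning, 19 knockout and 12 control members had 3 or more Cck UMIs, and members with 10 or more held 56.2% and 64.3% of its UMIs. Sst had no UMI in a member of either library. The factors Maf, at 8.80% and 12.8%, and Lhx9, at 6.09% and 7.96%, marked further sets, and Meis2 had a UMI in 59.4% and 61.9% of members. Cartpt, Tac1, Npy, Vip or Chat had a UMI in 37.7% of knockout and 31.8% of control members.

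**Figure D2:**
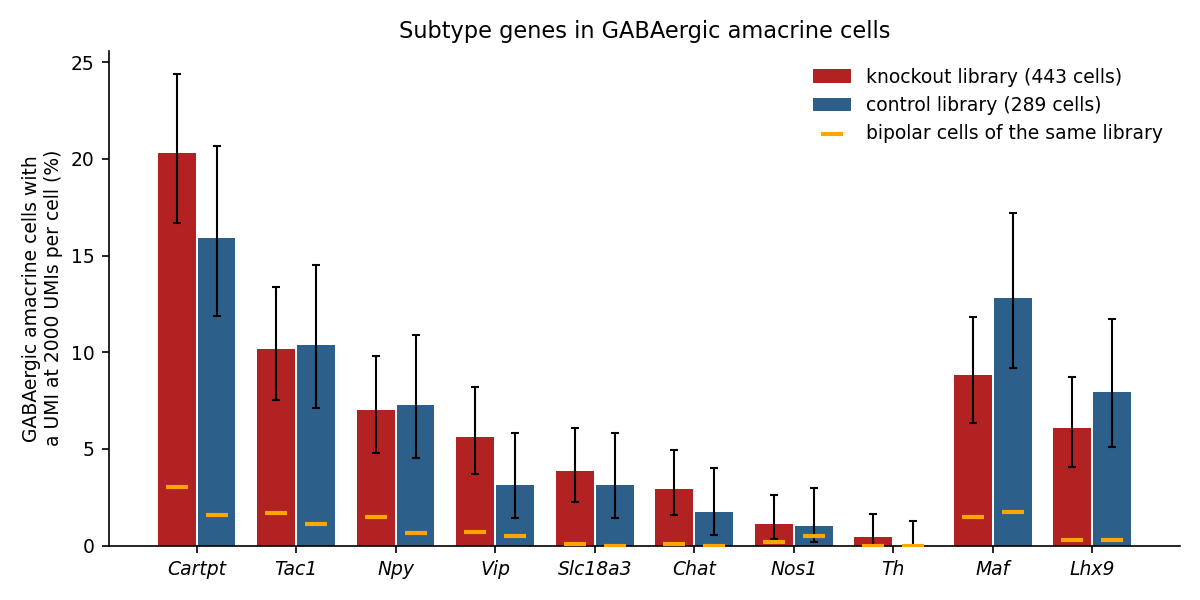
Share of GABAergic amacrine cells with a UMI of each subtype gene after thinning to 2000 UMIs per cell (y axis, percent) in 443 knockout cells (red) and 289 control cells (blue), with exact binomial 95% intervals as error bars. Orange marks give the share in bipolar cells of the same library. Knockout and control intervals overlap for every gene drawn, and Cartpt has the highest share in both.

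Each subtype gene came with companions, named here as the genes highest in its carriers over other members in both libraries, which is a description. Cartpt (mm10 chr13:99898489-99901091, minus strand) was concentrated: 64 knockout and 30 control members with at least 10 UMIs held 98.9% of its UMIs in each library, with as many as 6670 in 1 knockout cell and 6405 in 1 control cell. These carriers had Kit, a receptor tyrosine kinase, at 351 CPM against 0.167 CPM in the other members of the knockout library, and at 288 against 0.248 CPM in the control library. Slc35d3, Iyd, Syt10, Rprm, the somatostatin receptor gene Sstr2, Sv2c and Alk were also among their 8 leading genes. Of the cells with 3 or more Vip UMIs, 17 of 27 knockout and 7 of 11 control cells were also Cartpt carriers. Vip cells held Cbln4, Abi3bp and the factor Nfia, at 1261 CPM against 116 CPM in other knockout members and 1245 against 120 CPM in other control members. No cell of either library carried Cartpt together with Npy or with the starburst genes at these minimums.

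Starburst-like sets of 20 knockout and 13 control cells had 3 or more UMIs of Chat or Slc18a3. They had Isl1, a factor of starburst cells, at 728 CPM against 1.78 CPM in other knockout members and at 526 against 2.28 CPM in other control members. Slc5a7, the choline transporter, stood at 714 and 6.37 CPM in the knockout library and 669 and 3.88 CPM in the control library, and Megf11, which spaces starburst cells, was also among the leading genes. Of these cells, 19 of 20 in the knockout and 9 of 13 in the control library also carried Npy. The 62 knockout and 35 control cells with Tac1 had the chemokine gene Cxcl14 at 499 against 133 CPM in the knockout library and 703 against 151 CPM in the control library. The 42 knockout and 40 control Maf cells had Adarb2 at 2550 against 285 CPM and 2472 against 212 CPM, with the muscarinic receptor gene Chrm1 and Prdm8. The 44 knockout and 32 control Lhx9 cells had Mdga1, Tshr, Sdk1 and Olfm3. The remaining 277 knockout and 195 control members (62.5% and 67.5%) carried none of Cartpt, Tac1, Npy, Vip or the starburst genes at these minimums.

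Between the knockout and control libraries, the machinery that defines these cells was close to even. Of 10530 genes with at least 100 UMIs over both libraries, 2.83% were at least 1.5-fold higher and 3.44% at least 1.5-fold lower in knockout members, 6.27% in all, with a median log2 ratio of 0.00. None of 13 genes of GABA synthesis, release and uptake was past 1.5-fold (median log2 -0.09), nor any of 18 for GABA and glycine receptors (-0.15). The first of these lists includes Gad1, which chose the cells in both libraries, so its evenness is in part a description of the selection. Gabra2, a GABA receptor subunit, had 331 CPM in knockout and 396 CPM in control members. Of 25 synaptic vesicle genes, 0 were higher and 1, Sv2b, was lower. Syt1, the calcium sensor of release, had 2995 and 3436 CPM, and Snap25 had 2246 and 2196 CPM. Of 22 glutamate receptor genes, 1 was higher, Grin3a, but 1 knockout cell held 82 of its 156 knockout UMIs. Of 28 channel genes, 1 was higher: Kcnq5, an M-current potassium channel, at 50.8 CPM in knockout and 25.3 CPM in control members (2.01, 1.63 to 2.50). Of 14 listed neuropeptide genes, 1 was higher, the prodynorphin gene Pdyn, at 11.4 and 6.48 CPM. Tac2, which is not on that list, had 303 CPM in knockout and 127 CPM in control members (2.39, 2.18 to 2.62), with a UMI in 5.87% and 3.81% of cells and as many as 386 of 2150 UMIs in 1 knockout cell and 215 of 589 in 1 control cell. Cartpt had 2798 CPM in knockout and 2475 CPM in control members (1.13), Npy 133 and 95.2 CPM (1.39), Vip 172 and 135 CPM (1.27) and Tac1 183 and 211 CPM (0.87).

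Transcription factors and calcium-binding proteins held a few larger differences. Of 27 transcription factors, which include Tfap2b of the membership rule, 1 was higher (Ebf1) and 4 were lower (Nfib, Tbx2, Neurod1 and Prox1). Meis2 had 1053 CPM in knockout and 1112 CPM in control members. Neurod1 had 62.1 and 96.3 CPM (0.64, 0.56 to 0.74), with a UMI in 37.0% and 57.8% of cells. Of 16 calcium-binding protein genes, 4 were higher: Calb2 (calretinin), Hpca, Hpcal1 and Pvalb (parvalbumin). Calb2 had 359 and 237 CPM (1.51), and Pvalb had 17.6 and 4.75 CPM (3.71, 2.35 to 6.14), with a UMI in 9.93% and 3.81% of cells. In members with 3 or more Xist UMIs the Pvalb ratio was 0.96, on 16 and 11 UMIs. Rcvrn, a photoreceptor and bipolar gene, was lower at 12.4 and 28.3 CPM (0.44) beside the rod markers at 266 and 924 CPM, whose part in it was not tested. Necab2 was lower too.

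Of all lists, the interferon lists had the median ratios farthest above 1. Of 22 measured type I interferon genes (34 listed, 32 in the files), 12 were at least 1.5-fold higher and 2 lower in knockout members, with a median log2 ratio of 0.63. Ifit1 (mm10 chr19:34640871-34650009, plus strand), which binds foreign RNA ends, had 182 CPM in knockout and 96.5 CPM in control members (1.89, 1.69 to 2.11), with a UMI in 37.2% and 18.0% of cells. Ifit3, a partner of Ifit1, had 160 and 97.8 CPM (1.63), with a UMI in 50.8% and 26.0%. The transcription factor subunit Irf9 had 70.4 and 38.9 CPM (1.81), and Usp18, a brake on interferon receptor signalling, had 28.6 and 10.6 CPM (2.71, 1.97 to 3.78). Stat2, Oasl2, Ifit2, Ifit3b, Parp14, Eif2ak2 and Ddx58 were also among those past 1.5-fold higher. Ifi27 and Isg15 were lower. Isg15 had 19.3 CPM in knockout and 50.5 CPM in control members, but 1 control cell held 126 of the 234 control UMIs. Without the 5 cells that held most Isg15 UMIs in each library its ratio was 1.40.

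Genes of interferon gamma and antigen presentation lay the same way. Of 25 measured genes, 10 were higher and 2 lower, with a median log2 ratio of 0.47. Iigp1, an immunity-related GTPase, had 57.0 CPM in knockout and 11.9 CPM in control members (4.80, 3.61 to 6.48), with a UMI in 16.5% and 7.61% of cells. Nlrc5, the activator of MHC class I genes, had 30.2 and 9.93 CPM (3.04, 2.20 to 4.28), and Irf1 had 34.1 and 14.7 CPM (2.33, 1.77 to 3.09). The peptide transporter Tap1, the immunoproteasome subunit Psmb9, Gbp7, Igtp, Irgm1, H2-T23 and Socs3 were also higher. Of other class I genes, H2-D1 had 179 and 147 CPM (1.22), B2m, the light chain of class I, had 157 and 148 CPM (1.06), with a UMI in 52.1% and 36.7% of cells, and H2-K1 had 104 and 146 CPM (0.72). For H2-K1 1 control cell held 187 of 674 UMIs. For B2m 1 control cell held 178 of 686 UMIs, and its ratio was 2.05 without the 5 richest cells of each library. Without doublet-like members the ratio was 1.57 for B2m, 1.38 for H2-D1, 6.97 for Iigp1 and 1.59 for the whole list summed, against 1.21 with them. The 2 lower genes were Gbp2 and Cd74, the class II invariant chain. For Cd74, 1 control cell held 135 of the 234 control UMIs.

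**Figure D3:**
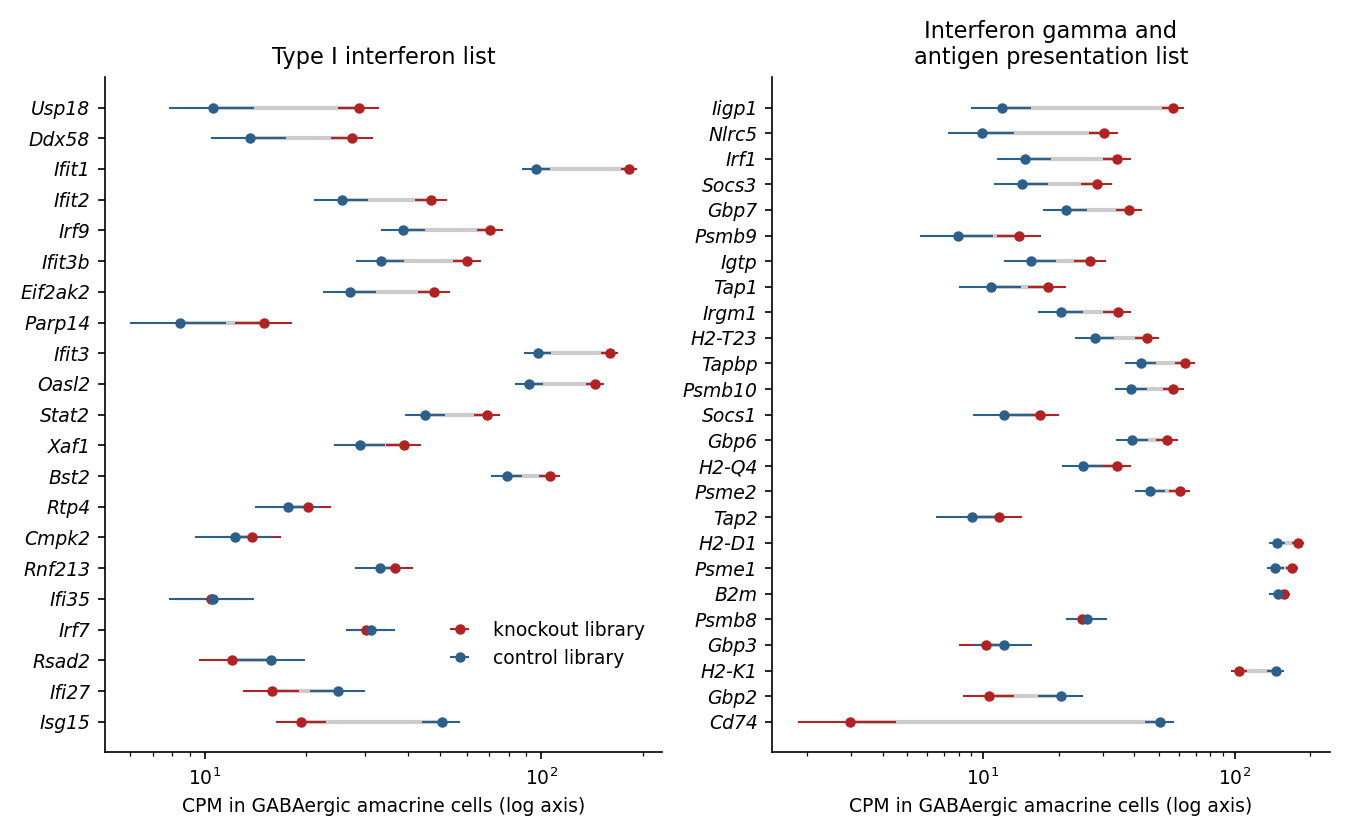
CPM (x axis, log scale) of 21 of the 22 measured genes of the type I interferon list and the 25 of the interferon gamma list (y axes) in GABAergic amacrine cells of the knockout library (red) and the control library (blue), with exact Poisson 95% intervals. Ifit1 lies at 182 CPM in knockout and 96.5 in control members and Iigp1 at 57.0 and 11.9, while Isg15 and Cd74 at the bottom are lower in knockout members.

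Cell by cell the difference was wide. The 22 type I genes summed to a median of 862 CPM per knockout member (quartiles 409 and 1724) and 255 CPM per control member (quartiles 105 and 608). Over summed UMIs the list had 1375 CPM in knockout and 898 CPM in control members, a ratio of 1.53 (1.48 to 1.59). Without doublet-like members it was 1330 and 694 CPM, a ratio of 1.92. The ratio of the list was above 1 in carriers of Cartpt (1.79), Tac1 (2.59), Npy (2.46), Lhx9 (2.42) and the starburst genes (2.35). It was 1.45 in the 225 knockout and 144 control members outside these sets and the Maf set. In Maf carriers it was 0.91 (0.83 to 1.00), although Stat3 was 2.22-fold higher there. The list had a UMI in 97.6% of 42 knockout and 72.5% of 40 control Maf carriers. Doublet-like members were kept in all these carrier sets, and their part in the ratios was not tested. In glycinergic cells the list had 2194 CPM in the knockout and 1606 CPM in the control library (1.37). In bipolar cells the list had 1622 and 1231 CPM (1.32).

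The promoters of 3 type I genes are shown because their response element can be read directly. The core of the interferon-stimulated response element is GAAA repeated after a gap of 2 bases, which reads as TTTC repeated after the same gap on the opposite strand. It was searched on both strands in the 250 bases before the start site in RefSeq promoters of GRCm38.p6, with overlapping matches counted. It was found in 41.2% of the 17 measured type I genes with a promoter entry (Ifit1, Ifit3, Ifit3b, Isg15, Rsad2, Stat2 and Bst2), against 3.46% of 27025 genes and 2.98% of 32851 promoters. Capitals mark the matches, 5′ to 3′ on the gene's strand, and a match is a description of these letters only. Ifit1 (chr19:34640639-34640888, plus strand) and Ifit3 (chr19:34583279-34583528, plus strand) hold 2 each, and Isg15 (chr4:156200819-156201068, minus strand) holds 3 that overlap.
Ifit1: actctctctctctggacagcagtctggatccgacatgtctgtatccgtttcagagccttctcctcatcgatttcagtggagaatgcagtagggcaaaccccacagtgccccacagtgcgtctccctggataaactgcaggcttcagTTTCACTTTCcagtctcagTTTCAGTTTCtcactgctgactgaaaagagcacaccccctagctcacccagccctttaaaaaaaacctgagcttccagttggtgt
Ifit3: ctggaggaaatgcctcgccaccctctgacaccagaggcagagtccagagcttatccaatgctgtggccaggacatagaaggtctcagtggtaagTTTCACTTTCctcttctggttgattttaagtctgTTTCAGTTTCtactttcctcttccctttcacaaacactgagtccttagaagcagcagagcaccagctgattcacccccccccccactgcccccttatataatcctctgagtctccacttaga
Isg15: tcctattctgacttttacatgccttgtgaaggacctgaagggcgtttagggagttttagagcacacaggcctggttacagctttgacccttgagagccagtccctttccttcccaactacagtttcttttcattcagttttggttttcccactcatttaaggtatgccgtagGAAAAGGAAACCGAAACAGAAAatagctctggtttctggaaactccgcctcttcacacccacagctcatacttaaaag

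Xist divided the members further. Xist (mm10 chrX:103460366-103483254, minus strand) is the RNA that coats the inactive X chromosome and is made in female cells, so its UMIs separate cells of female and male origin within a pool. Of the members, 101 knockout (22.8%) and 65 control cells (22.5%) had 3 or more Xist UMIs, and 333 and 201 had none, while 9 and 23 had 1 or 2 and were left out of the split. A UMI of a Y-linked gene was found in 10 knockout and 14 control cells with 3 or more Xist UMIs, and in 307 and 193 of those with none. Without doublet-like members, 95 knockout and 62 control cells remained with 3 or more Xist UMIs, at medians of 14420 and 15646 UMIs. With none there remained 327 knockout and 199 control cells, at medians of 14651 and 14562 UMIs. The labels do not state how many animals of each sex a pool held, so sex and animal cannot be told apart.

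The higher interferon levels of knockout members were seen in the cells without Xist and in the few with 1 or 2 Xist UMIs. Among cells with 3 or more Xist UMIs the type I list summed to 1367 CPM in knockout and 1891 CPM in control members, a ratio of 0.72 (0.68 to 0.77). Among cells with none it summed to 1286 and 315 CPM, a ratio of 4.08 (3.81 to 4.37). The control cells without Xist were the low set of the 4. The per-cell median was 930 CPM in knockout and 1165 CPM in control cells with Xist, and 791 CPM in knockout and 189 CPM in control cells without. The gap between these 2 ratios has no test, since each rests on the same pair of libraries. In the 9 knockout and 23 control cells with 1 or 2 Xist UMIs, doublet-like ones kept, the list had a ratio of 5.50 (4.55 to 6.67).

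**Figure D4:**
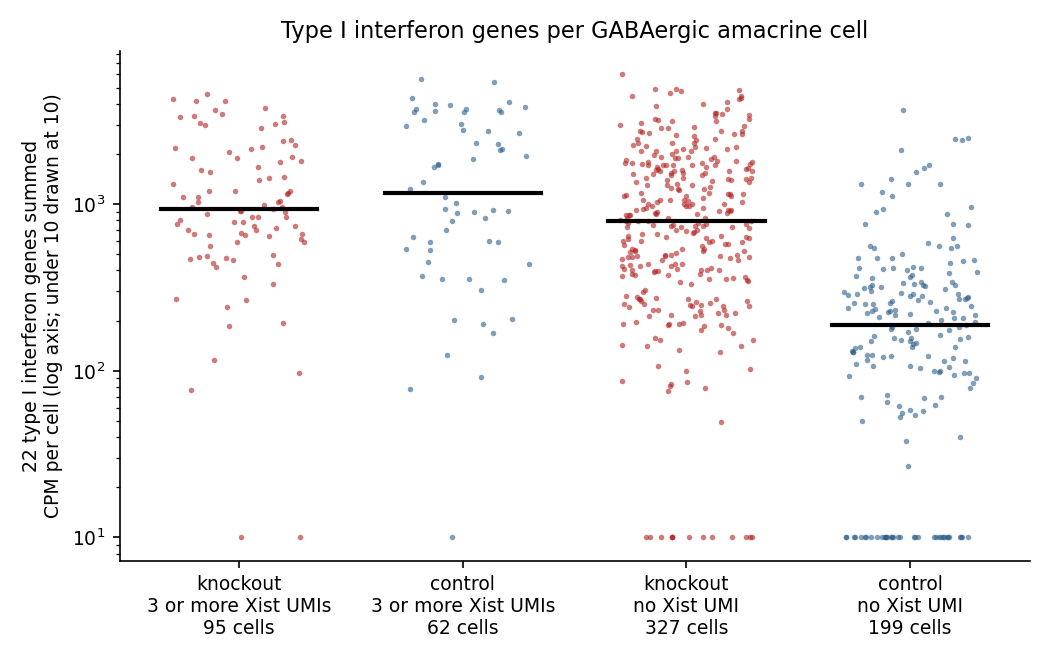
Summed CPM of the 22 type I interferon genes in each GABAergic amacrine cell (y axis, log scale, values under 10 drawn at 10) by library and Xist count, without doublet-like members; each point is a cell and each bar a median. Medians are 930 and 1165 CPM in knockout and control cells with 3 or more Xist UMIs, and 791 and 189 CPM in knockout and control cells with none.

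Single genes followed the list. Ifit1 had 212 CPM in knockout and 280 CPM in control cells (0.76, 0.64 to 0.89) with 3 or more Xist UMIs, and 163 and 23.5 CPM (6.95, 5.44 to 9.0) without it. It had a UMI in 41.1% and 41.9% of cells with Xist, and in 35.8% and 9.55% of cells without. Again the control cells without Xist had the low value. Stat3 had 179 and 198 CPM (0.90) with Xist, and 213 and 65.7 CPM (3.24) without it. B2m had 140 and 225 CPM (0.62) with Xist and 123 and 42.2 CPM (2.92) without it. Iigp1 was higher in knockout members of both sets, at 46.4 and 26.1 CPM (1.78) with Xist and 63.4 and 2.35 CPM (27, 13.0 to 67.8) without it. With Xist, its ratio was 1.18 (0.80 to 1.75) when doublet-like members were kept. Without them, 17.9% of knockout and 17.7% of control cells with Xist had a UMI of it.

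In cells with 3 or more Xist UMIs, 0 of 12 measured type I genes were at least 1.5-fold higher in knockout members and 4 lower (median log2 -0.31), and 1 of 12 interferon gamma genes was higher and 5 lower (-0.48), where 4.78% of 5226 genes were higher and 4.38% lower. In cells without Xist, 16 of 17 type I genes were higher and 0 lower (1.93), where 2.87% of 9293 genes were higher and 1.87% lower. The interferon gamma list had 16 of 18 higher and 0 lower (1.89). Within the knockout library, cells with Xist against cells without had 0 of 16 type I genes past 1.5-fold (median log2 0.05), where 1.99% of 8642 genes were higher and 3.33% lower. Within the control library 9 of 9 were higher (2.27), where 4.09% of 6870 genes were higher and 4% lower. Ifit1 in cells with Xist over those without had a ratio of 1.30 in the knockout library and 11.9 in the control library. Doublet-like cells were also left out of the same split in the other classes. In glycinergic cells the type I list had a ratio of knockout over control of 1.02 with 3 or more Xist UMIs and 1.80 without. In bipolar cells it was 1.65 and 1.92.

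**Figure D5:**
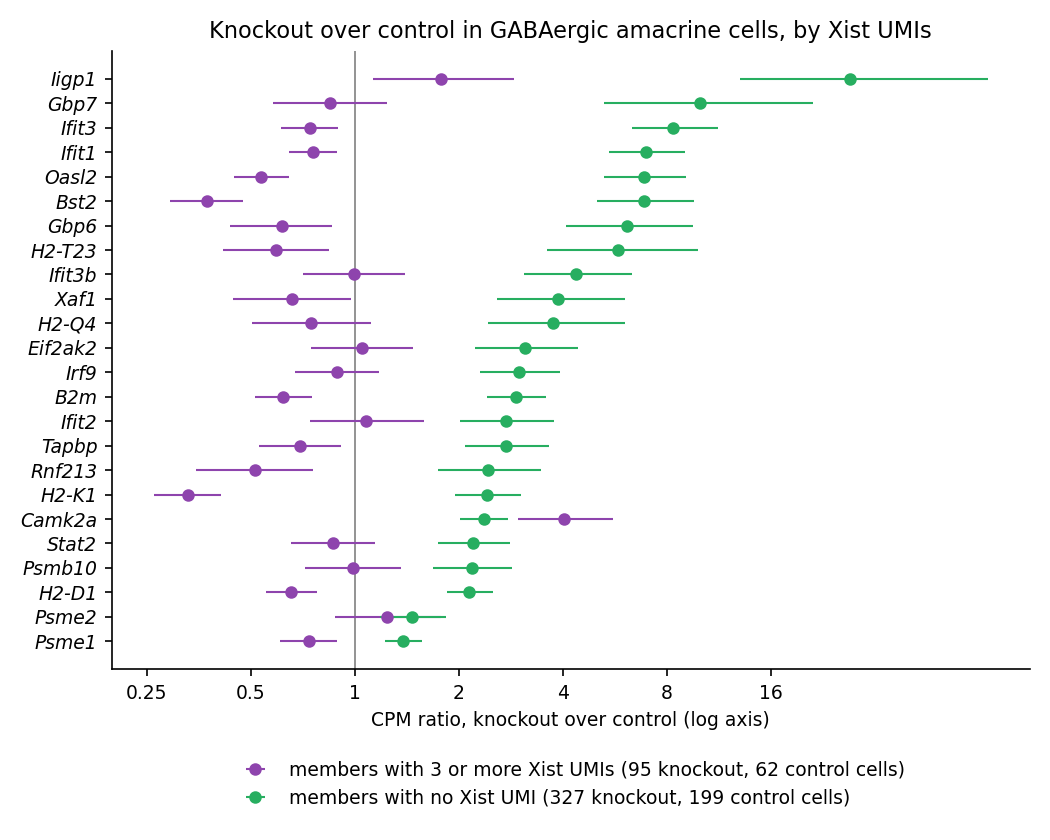
Ratio of CPM in knockout over control GABAergic amacrine cells (x axis, log scale) with counting 95% intervals, in cells with 3 or more Xist UMIs (purple) and cells with none (green), for 23 interferon genes with at least 100 UMIs in each set and for Camk2a (y axis). In cells with Xist, Iigp1 (1.78), Psme2 (1.24), Ifit2 (1.08) and Eif2ak2 (1.05) lie above 1, and in cells without it all 23 interferon genes do. Camk2a lies above 1 in both sets. Doublet-like members are left out.

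Outside the interferon lists, genes were named by size of ratio among those with at least 200 UMIs, a UMI in at least 10% of members and a CPM no lower than in the remaining cells. Camk2a, the alpha subunit of a calcium-activated kinase of synapses, had 160 CPM in knockout and 65.2 CPM in control members (2.46, 2.16 to 2.80), with a UMI in 47.0% and 36.3% of cells. It was higher in knockout cells with 3 or more Xist UMIs (191 and 47.3 CPM, 4.03) and in those with none (153 and 64.7 CPM, 2.36), and also in glycinergic cells (2.89) and bipolar cells (1.79). Cep95, a centrosomal protein gene, had 126 and 47.7 CPM (2.63, 2.27 to 3.06), with 133 UMIs in 1 knockout cell. It had a UMI in 35.2% of knockout and 33.2% of control cells. Cep95 was 3.89-fold and 2.25-fold higher with and without Xist, but its ratio was 1.16 in glycinergic and 0.86 in bipolar cells. Sema6d, an axon guidance gene, had 26.5 and 11.4 CPM (2.32), the potassium channel gene Kcnk10 had 23.3 and 10.1 CPM (2.29), and Nefh, a neurofilament chain, had 38.2 and 20.5 CPM (1.86). For Kcnk10 1 knockout cell held 45 of 165 UMIs, and 12.4% of knockout and 11.4% of control cells had a UMI. Fam81a, Coch, Ube2cbp and the factor Pou3f1 lay between 1.94 and 2.20.

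The genes with the smallest ratios included several seen in many cells. Slc15a2, a peptide transporter, had 20.3 CPM in knockout and 45.8 CPM in control members (0.44, 0.36 to 0.55), with a UMI in 17.4% and 36.3% of cells. It was also lower in knockout cells with Xist (0.33), without Xist (0.41), in glycinergic cells (0.59) and in bipolar cells (0.36). Srrm4os, a noncoding gene opposite Srrm4, had 29.8 and 54.4 CPM (0.55, 0.45 to 0.66), with a UMI in 28.9% and 47.8% of cells. The labels do not state whether counting kept strands, so its reads and those of Srrm4 may not be separate. Il1rapl2, a synaptic adhesion protein of the interleukin-1 receptor family, had 211 and 402 CPM (0.52, 0.49 to 0.56), with a ratio of 0.82 with Xist and 0.44 without it. Sart3, a splicing factor gene, had 19.0 and 32.2 CPM (0.59), and the protocadherin-like Fat4 had 16.9 and 30.9 CPM (0.55). Mctp1, Npr3, Fam184b and Tmem200a lay between 0.47 and 0.60.

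A few of the low ratios came from single cells. Fabp5, a fatty acid carrier, had 170 CPM in knockout and 606 CPM in control members (0.28), but 1 control cell held 1104 of 2809 UMIs, and without the 5 richest cells of each library the ratio was 1.5. For Depdc5 1 control cell held 218 of 677 UMIs, and its ratio of 0.45 was 0.94 without such cells. For Cpne4 1 control cell held 188 of 571 UMIs, and its ratio of 0.50 was likewise 0.94.

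Inflammatory genes of the NF-kB list lay lower in knockout members on balance, with much of their UMIs in single cells. Of 20 measured, 1 was higher (Relb) and 8 were lower in knockout members, with a median log2 ratio of -0.26. That median turned to 0.63 without the 5% of members with most UMIs and to 0.15 when each cell counted equally, and it was -1.75 in members with 3 or more Xist UMIs and 0.18 in those with none. Lcn2, an iron-siderophore carrier, had 1094 CPM in knockout and 3648 CPM in control members (0.30), and Saa3, an acute-phase protein, had 18.1 and 413 CPM (0.04). For Lcn2 1 control cell held 6357 of 16897 UMIs, and for Saa3 1 control cell held 1807 of 1913. Without the 5 richest cells of each library the ratios were 2.66 and 1.33. The chemokine Ccl2 had 65.2 and 274 CPM, with 555 of 1271 control UMIs in 1 cell. The inhibitor Nfkbia had 59.8 and 104 CPM (0.57), with a UMI in 38.4% of knockout and 29.4% of control cells. The Müller glia markers had 999 CPM in knockout and 1608 CPM in control members, lower in knockout members as these genes were, and their part in the NF-kB values was not tested. Of 14 genes of the STAT3 and interleukin-6 family list, 2 were higher and 1 lower. Stat3 (chr11:100885098-100939540, minus strand) had 217 and 118 CPM (1.84, 1.67 to 2.03), with a ratio of 2.20 without doublet-like members, and Socs3, its feedback inhibitor, had 28.4 and 14.2 CPM (1.99).

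Early response genes, which rise with activity and with dissociation, were high in both libraries. Fos had 2707 CPM in knockout and 2378 CPM in control members (1.14) and Egr1 had 1300 and 1182 CPM (1.10). Of 30 such genes, 0 were higher and 5 were lower: Atf3, Ier3, Arc, Egr3 and Klf6. For Atf3 (0.53) 1 control cell held 87 of 290 UMIs, and its ratio was 1.16 without the 5 richest cells of each library and 1.54 without the 5% of members with most UMIs. Arc, a regulator of synaptic strength, had 37.1 and 67.6 CPM (0.55, 0.46 to 0.65). Of 17 genes for p53 signalling and nerve injury, 3 were higher and 1 was lower. Sox11 had 18.9 and 8.20 CPM (2.30), Cdkn1a, a cell cycle inhibitor, had 24.7 and 12.3 CPM (2.01), and Bcl2l11, a promoter of apoptosis, had 26.5 and 16.6 CPM (1.60).

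Few genes of the housekeeping lists lay past 1.5-fold between the libraries. Over all 10530 genes only 6.27% did, so low counts on lists of this size do not set these programmes apart. Of 36 autophagy genes, 0 lay past 1.5-fold (median log2 0.03). Map1lc3a, an LC3 protein, had 358 CPM in knockout and 331 CPM in control members. None of 28 lysosomal genes (0.00), 38 oxidative phosphorylation genes (0.10), 21 cholesterol synthesis genes (0.13) or 22 genes of the unfolded protein and integrated stress responses (-0.11) was past 1.5-fold. Of 13 heat shock genes 1 was lower (Dnajb1), of 23 glycolysis genes 1 (Slc16a1, a lactate carrier), and of 25 genes of oxidative stress and iron 1, the metallothionein Mt2. Mt2 had 273 and 418 CPM (0.65), with 358 UMIs in 1 knockout and 590 in 1 control cell.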

How the data were processed

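The members, gene lists and comparisons were chosen with earlier results of these data known. The deposited matrices hold UMI counts, not normalized, for each gene in each barcode, made from papain-dissociated retinas with 10x Genomics 3' v3.1 reagents per the labels' protocols. The submitters' processing notes name Cell Ranger 6.0.0, Seurat 5.2.1 and mm10, with no annotation release. Of 32285 features, 40 repeat a symbol, and the first of each was used. No file gives cell types, so cells were picked by the rule on UMIs given above and no doublet caller was run; doublet-like members stay in unless stated.

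UMIs of the cells of a class were added up within each library and scaled to CPM, with exact Poisson 95% intervals. Ratios have exact conditional binomial intervals, and shares have exact binomial (Clopper-Pearson) intervals. Log2 ratios had 0.5 added to both counts. Genes needed 100 UMIs over the groups compared, and 1.5-fold was the size named. With 1 library per group no test was run. Glycinergic cells mirrored the rule, with at most 2 Rlbp1 UMIs. Bipolar cells had 5 or more UMIs over bipolar marker genes. The median log2 ratio over all 10530 genes was 0.00, with TMM scaling moving it by -0.0023.

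Named genes were the 12 largest and 12 smallest knockout over control ratios among genes with at least 200 UMIs, a UMI in at least 10% of members and a CPM no lower than in the remaining cells. The 10 highest and 10 lowest against glycinergic cells were also named. So were the largest, smallest and 2 highest genes of each list, a fixed set of subtype and check genes, and others by count or marked as chosen after their values were seen. Mx1 and Mx2 are not analysed here, and a few other genes are not reported here. Coordinates come from GENCODE annotation of mm10 and promoters from RefSeq. Alternatives changed the depth and Gad minimums, thinning, scaling, free RNA, the members kept and the UMI minimum. The ratio step was tested on simulated sums with counting error only. That cannot show how it behaves where a few cells hold most UMIs of a gene. Python 3.11.15, numpy 2.4.6, scipy 1.17.1, pandas 2.3.3, matplotlib 3.10.9, R 4.3.3 and edgeR 4.0.16 (TMM) were used.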

Additional observations from a re-analysis of the deposited data

Results flagged for a closer look

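Among the named genes, a few lay past 1.5-fold in opposite directions in GABAergic and glycinergic amacrine cells of the same libraries. None of these differences was tested. Relb, an NF-kB subunit, had a ratio of knockout over control of 1.68 in GABAergic and 0.366 in glycinergic cells. In GABAergic cells it was 0.652 after thinning, but on only 6 UMIs in each library. Socs3, a feedback inhibitor of cytokine signalling, had 1.99 in GABAergic and 0.624 in glycinergic cells, but 0.845 in GABAergic cells with 3 or more Xist UMIs. Lif, a cytokine of the interleukin-6 family, had 0.442 in GABAergic and 2.05 in glycinergic cells, but in GABAergic cells it was 1.04 without doublet-like members, 2.01 without the 5% with most UMIs and 2.22 in those without Xist.

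Likewise, and also untested, the class I genes B2m and H2-D1 lay on opposite sides of 1 in members with and without Xist. Only named genes were screened for this. Other interferon genes lay the same way, among them H2-K1 (0.329 with Xist and 2.42 without) and Bst2 (0.373 and 6.85). Iigp1, Psme2, Ifit2 and Eif2ak2 lay above 1 in both. B2m had a ratio of 0.621 in members with 3 or more Xist UMIs and 2.92 in members with none. H2-D1 had 0.655 in members with 3 or more Xist UMIs and 2.15 in members with none.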

How the results depend on the processing

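No paired analysis was possible because there was 1 library per group. Of ratios under all alternatives, 970 moved by less than their counting interval, 388 moved further and 39 turned direction; the cause was not tested. The alternatives by Xist, and those without doublet-like members, were chosen after seeing the data.

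The share of members was 8.56% of knockout cells at 5000 UMIs and 6.50% with 10 Gad UMIs, which left 192 control members (2.32%). The number of genes measured changed with the setting, so each count has its share of them beside it. Genes past 1.5-fold higher were 1036 (7.18%) from 20 UMIs, 88 (2.705%) after thinning and 489 (4.64%) with free RNA taken away, against 298 (2.83%). Genes lower were 1054 (7.30%) from 20 UMIs, 235 (2.40%) with 10 Gad UMIs and 73 (2.24%) after thinning, against 362 (3.44%). They were 205 (2.06%) without the 5% deepest members, 229 (4.38%) with Xist and 174 (1.87%) without. Against glycinergic cells, thinning gave 478 higher and 315 lower in the knockout library and 426 and 287 in the control library, and 20 UMIs gave 2361 and 2396, and 2311 and 2680. The share with a subtype gene was 32.3% of knockout members at 3 UMIs of 5000 and 38.0% of control members with 10 Gad UMIs.

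The type I median log2 ratio was 0.99 without the deepest members, 0.90 without doublet-like ones, -0.31 with Xist and 1.93 without. For interferon gamma these were 1.18, 0.89, -0.48 and 1.89. For NF-kB it was 0.15 as a per-cell mean, -0.79 with free RNA taken away, 0.63 without the deepest members, -1.75 with Xist and 0.18 without.

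A ratio counted as turned if it was past 1.5-fold one way in the main analysis and on the other side of 1 under an alternative. Slc1a3, not named above, was thus at least 1.5-fold lower in knockout members in the main analysis. Ratios that turned were, with 10 Gad UMIs, Saa3 1.41 and Mt2 2.44. After thinning they were Coch 0.954, Npr3 1.13, Isg15 1.77 and Relb 0.652 (on 6 UMIs in each library), and as a per-cell mean Isg15 1.13. Without the deepest members they were Fabp5 1.68, Depdc5 1.02, Slc1a3 1.39, Lcn2 5.50, Atf3 1.54, Isg15 1.38, Cd74 1.18, Saa3 1.56, Lif 2.01, Slc16a1 1.08 and Mt2 1.84. Without doublet-like members they were Depdc5 1.04 and Lif 1.04. With Xist they were Depdc5 1.05, Pvalb 0.956, Ifit1 0.755, Socs3 0.845 and Stat3 0.905. Without Xist they were Fabp5 1.27, Depdc5 1.03, Slc1a3 1.44, Lcn2 1.30, Isg15 3.56, Saa3 1.28, Lif 2.22 and Slc16a1 1.07. Without the 5 cells richest in the gene they were Fabp5 1.5, Lcn2 2.66, Atf3 1.16, Isg15 1.40, Saa3 1.33 and Mt2 1.78.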
